A study of Mus musculus with 2 samples.

Results

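The genes that write, maintain, read and remove DNA methylation were examined in a map of H2AZ, a variant of histone H2A, in embryonic neural progenitors. The 10 genes were Dnmt1, Uhrf1, Dnmt3a, Dnmt3b, Dnmt3l, Tet1, Tet2, Tet3, Mbd1 and Mbd2, out of 21774 protein-coding genes placed on the chromosomes in the RefSeq gene table. For each, every listed peak that overlapped the gene or the 5 kb on either side of it was taken. The genes were chosen by function and with their peak positions and scores in this same list already known. The counts below therefore describe them, and no test was made of them.

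The study held 1 H2AZ chromatin immunoprecipitation library and 1 input library. Both were made from brain neural progenitor cells of C57BL/6 mice, taken at embryonic day 13, with no mutant allele or treatment in the labels. The deposited values were 1 list of 21592 peaks, each with a score by the authors of unstated unit, so scores only rank peaks within this list. There was no replicate, the number of reads was unknown, and no value below carries an error or a test. The labels do not say whether cells were pooled from several embryos or how progenitors were separated from other brain cells.

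In mammals, DNA methylation is placed on the cytosine of CpG dinucleotides. DNMT3A and DNMT3B methylate new sites, helped in germ cells by the catalytically inactive DNMT3L, and UHRF1 brings DNMT1 to freshly replicated DNA to copy the pattern. TET1, TET2 and TET3 oxidise 5-methylcytosine to 5-hydroxymethylcytosine and beyond, which starts its removal, and MBD1 and MBD2 bind methylated CpG. CpG-rich promoters are mostly unmethylated, and H2AZ is known from Arabidopsis and from mammals to lie mainly where DNA is not methylated. In the developing brain these enzymes are known for the change of methylation patterns as progenitors become neurons and glia.

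Peaks were found at 8 of the 10 genes, and Dnmt3b and Tet2 had none. A peak within 1 kb of a gene end (an end peak) was present at 6 of 10 genes, namely Uhrf1, Dnmt3l, Tet1, Tet3, Mbd1 and Mbd2, against 55.4% of all protein-coding genes. An interior peak, one that overlapped the gene but not the 1 kb around its ends, was present at 3 of 10 genes, namely Dnmt1, Dnmt3a and Tet1, against 13.8% of all. Any peak in the gene or within 5 kb was present at 8 of 10 genes, against 63.8% of all, and 4 of 10 genes had at least 2 such peaks, against 22.5% of all. The 10 genes were longer than most, with a median length of 56.8 kb against 17.2 kb, and the part of length in these counts was not tested.

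**Figure D1:**
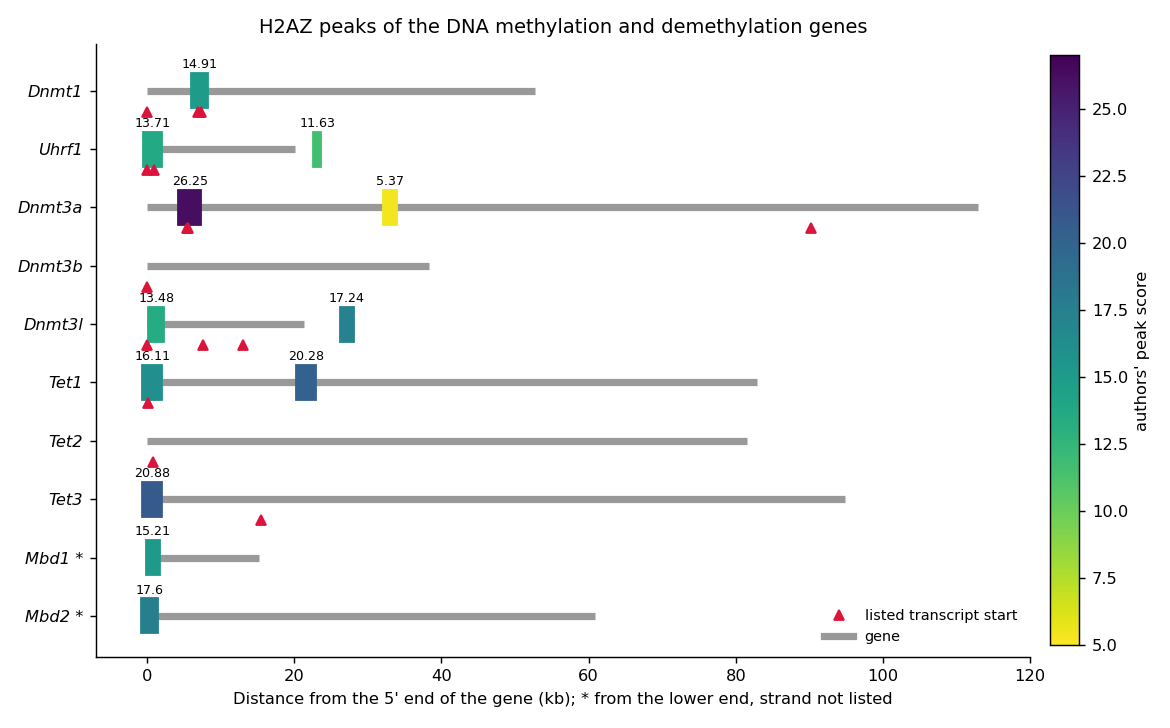
Each row is a gene drawn from its 5' end in kb, with peaks as boxes coloured and labelled by the authors' score and transcript starts of the RefSeq promoter table as triangles; Mbd1 and Mbd2 are drawn from their lower coordinate because no strand was listed. Peaks at 6 genes lie at the left end, and the rows of Dnmt3b and Tet2 hold no peak. The peak of Dnmt1 and the higher-scoring peak of Dnmt3a lie on starts inside the gene.

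The genes and their 5 kb flanks held 12 peaks with scores between 5.37 and 26.25. Those of 11.63 (Uhrf1) and 17.24 (Dnmt3l) lay in a flank, outside the gene. The median score of the 12 was 15.66, against 11.93 over all listed peaks, and 10 of the 12 were at or above this overall median. The overall list is not limited to peaks near genes, and no median over such peaks alone is given. The median width of the 12 peaks was 2318 bp, against 1922 bp over all listed peaks. The 6 best end peaks had a median score of 15.66, against 17.08 over the 12060 protein-coding genes with an end peak. All 6 end peaks were at or above the median score of the list, as were those of 9659 of the 12060 genes. Such an end peak was thus present at 6 of the 10 genes, against 44.4% of all protein-coding genes. None of the 10 genes had a peak at both ends, against 5.42% of all. The outermost peak that the 5 kb rule admitted lay 4.8 kb from Dnmt3l with a score of 17.24, and the nearest peak that it left out lay 7.7 kb from Dnmt1 with a score of 7.95.

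**Figure D2:**
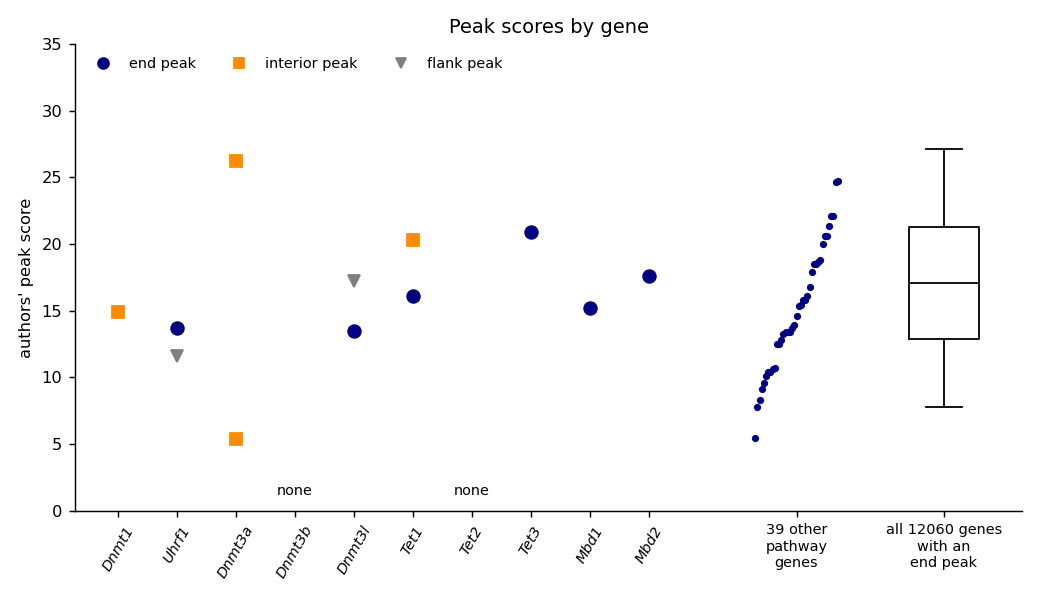
The y axis gives the authors' peak score for every peak of the 10 genes by its position (end, interior or flank), then the best end peak of the 39 other pathway genes that had one, and a box for the 12060 protein-coding genes with an end peak (median and quartiles, whiskers from the 5th to the 95th percentile). The interior peak of Dnmt3a (26.25) is the highest of the 10 genes, and their end peaks run from 13.48 to 20.88.

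Promoter windows of RefSeq, from 250 bases before to 50 after a transcript start on GRCm38.p6, were matched by symbol for 8 of the genes, with 15 windows in all. Mbd1 and Mbd2 were not matched. A peak overlapped 7 of the 15 windows, against 40.7% of all 32851 listed windows, and 4 of the 8 genes (Dnmt1, Uhrf1, Dnmt3a and Tet1) had at least 1 such window, against 54.4% of 17492 protein-coding genes. By the peak midpoint only 1 of the 8 genes, Dnmt1, had one, against 23.0% of all, and with at least 50% of the peak in the 300 bp window 0 did, against 0.00572% of all. The windows shown next are those where a peak and the CpG content of the start go together or part. In each sequence the capitals mark CpG dinucleotides and the strand is that of the gene.

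Dnmt1, the maintenance methyltransferase, had 1 peak, which lay inside the gene and covered its middle and innermost listed starts. The gene spans 52.7 kb of chromosome 9 (20907206 to 20959888, minus strand). The peak, from 20951557 to 20953940, scored 14.91, above 62.3% of the listed peaks, and was 2384 bp wide. It began 5.9 kb inside the 5' end and its midpoint lay 125 bp upstream of the innermost of 3 listed starts. Mouse Dnmt1 is known to have an oocyte transcript that begins upstream of the somatic one. The outermost start had 2 CpG in its window, an observed over expected CpG ratio of 0.10 (the count of CpG against that predicted from the C and G of the window), and lay 5.9 kb from the peak. The innermost start had 33 CpG, a ratio of 0.91, and lay in the peak. The middle start, with a ratio of 0.50, lay in it too. The outermost and innermost windows are printed to show this contrast within 1 gene.
Dnmt1 window, chr9:20959839-20960138 (minus strand): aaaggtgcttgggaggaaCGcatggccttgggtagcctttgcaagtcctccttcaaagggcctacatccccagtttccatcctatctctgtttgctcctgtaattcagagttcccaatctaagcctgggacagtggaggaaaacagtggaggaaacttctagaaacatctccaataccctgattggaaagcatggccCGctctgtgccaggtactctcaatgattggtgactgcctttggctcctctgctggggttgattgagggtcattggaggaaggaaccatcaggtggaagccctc
Dnmt1 window, chr9:20952574-20952873 (minus strand): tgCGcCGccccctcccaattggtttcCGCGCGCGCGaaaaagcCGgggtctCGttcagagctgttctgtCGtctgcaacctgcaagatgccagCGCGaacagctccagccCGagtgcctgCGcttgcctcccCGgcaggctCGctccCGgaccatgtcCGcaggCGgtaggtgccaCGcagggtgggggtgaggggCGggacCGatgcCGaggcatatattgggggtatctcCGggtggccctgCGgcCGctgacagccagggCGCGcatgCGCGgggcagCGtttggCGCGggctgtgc

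Dnmt3a, a de novo methyltransferase gene active in neural cells, carried the highest-scoring peak of the 10 genes. The gene spans 112.9 kb of chromosome 12 (3801559 to 3914443, plus strand). The peak, from 3805733 to 3808923, scored 26.25, above 96.3% of the listed peaks, and with 3191 bp was the 711th widest of 21592. It began 4.2 kb inside the 5' end of the gene model, so it was not an end peak, and it covered a pair of listed starts with CpG ratios of 0.96 and 1.06. Its midpoint lay 348 and 168 bp downstream of these starts. Dnmt3a is known to have a shorter isoform from an internal promoter, abundant in embryonic stem cells and germ cells. The innermost listed start, 90.2 kb inside the gene, had a CpG ratio of 0.47 at a GC content of 74.0% and lay 49.5 kb from the nearest peak. A second interior peak of Dnmt3a, from 3833553 to 3835457, scored 5.37, above only 2.43% of the listed peaks, and lay 27.3 kb downstream of the nearest listed start. The windows of the outermost and innermost listed starts are printed.
Dnmt3a window, chr12:3806730-3807029 (plus strand): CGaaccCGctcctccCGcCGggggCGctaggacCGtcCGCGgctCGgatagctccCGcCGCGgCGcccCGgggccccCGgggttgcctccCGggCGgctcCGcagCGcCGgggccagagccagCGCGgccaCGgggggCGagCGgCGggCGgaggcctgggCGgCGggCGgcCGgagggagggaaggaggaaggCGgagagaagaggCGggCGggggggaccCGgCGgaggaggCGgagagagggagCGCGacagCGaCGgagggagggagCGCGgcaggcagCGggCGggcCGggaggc
Dnmt3a window, chr12:3891494-3891793 (plus strand): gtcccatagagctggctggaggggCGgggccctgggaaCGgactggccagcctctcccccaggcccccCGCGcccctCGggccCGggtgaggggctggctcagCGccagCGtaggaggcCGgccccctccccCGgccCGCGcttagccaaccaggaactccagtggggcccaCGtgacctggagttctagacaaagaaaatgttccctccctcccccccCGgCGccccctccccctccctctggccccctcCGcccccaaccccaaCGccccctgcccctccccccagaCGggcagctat

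Of the 4 genes without an end peak, Dnmt1 and Dnmt3a thus had an interior peak on a listed start of their own. Over all protein-coding genes without an end peak 12.9% held an interior peak. Among 974 such genes with an interior peak and a listed start, an interior peak lay on a listed start in 52.9%. By the score of the interior peak, Dnmt3a ranked 46 and Dnmt1 472 among 1206 genes of this kind, predicted genes left out. The genes next above Dnmt3a were Usp7 (26.55), which encodes a deubiquitinase that stabilises UHRF1 and DNMT1, and Edem1 (26.50). Abi2 and Slc29a4 had the same score as Dnmt3a (26.25), so its rank is tied. Those next below were Vopp1 (26.22) and Zbtb11 (26.22). The likeness is that of 1 score in 1 library. An interior peak lay on a listed start in 5 of these 6 genes, and Abi2 had no listed start.

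Dnmt3b, the other de novo methyltransferase gene, had no listed peak although its promoter was rich in CpG. The gene spans 38.3 kb of chromosome 2 (153649411 to 153687730, plus strand). The window of its only listed start had a GC content of 76.0%, 30 CpG and a ratio of 0.69, a class (0.5 to 0.75) in which 70.8% of all listed windows overlapped a peak. The nearest peak lay 15.5 kb below the gene, at Commd7, with a score of 14.62, and the nearest on the other side lay 52.3 kb above it, at Mapre1, with 17.66.
Dnmt3b window, chr2:153649199-153649498 (plus strand): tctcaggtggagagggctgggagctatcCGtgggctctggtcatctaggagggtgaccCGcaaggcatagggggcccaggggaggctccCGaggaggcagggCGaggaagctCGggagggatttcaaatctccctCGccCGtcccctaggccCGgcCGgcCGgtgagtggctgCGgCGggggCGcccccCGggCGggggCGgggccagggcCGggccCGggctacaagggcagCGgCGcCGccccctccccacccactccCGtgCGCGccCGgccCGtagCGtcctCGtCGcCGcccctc

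Dnmt3l, the cofactor gene, had 1 end peak and 1 flank peak, and both were centred on the start of a neighbouring gene. The gene spans 21.3 kb of chromosome 10 (78042287 to 78063622, plus strand). The end peak, from 78042467 to 78044556, scored 13.48 and lay wholly inside Dnmt3l, starting 180 bp from its 5' end. Its midpoint was 99 bp from the start-side end of Aire, the autoimmune regulator gene, which runs on the opposite strand and overlaps Dnmt3l there, and a listed promoter window of Aire lay in the peak. The flank peak, from 78068434 to 78070414, scored 17.24, and its midpoint was 56 bp from the end of Icosl, a T cell costimulation gene, with a listed Icosl window in it. None of the 3 listed starts of Dnmt3l lay in a peak, and their CpG ratios were low, at 0.27, 0.22 and 0.11. The window of the first lay 131 bp outside the end peak.

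Uhrf1, which recruits DNMT1 to hemimethylated DNA, had its peak over both listed starts. The gene spans 20.2 kb of chromosome 17 (56303337 to 56323486, plus strand). The peak, from 56302745 to 56305361, scored 13.71, above 28.9% of genes with an end peak. The outer start had a CpG ratio of 0.47 and the inner, 976 bp further in, one of 0.96; the peak midpoint lay 716 bp downstream of the outer and 260 bp upstream of the inner start. A second peak, from 56325904 to 56326981, scored 11.63, lay 2.4 kb beyond the other end of Uhrf1 and had its midpoint 472 bp from the lower end of Kdm4b, a histone demethylase gene. It was the narrowest of the 12 peaks, at 1078 bp. The window of the inner start is printed because, with the innermost one of Dnmt1 above, it holds an E2F motif.
Uhrf1 window, chr17:56304063-56304362 (plus strand): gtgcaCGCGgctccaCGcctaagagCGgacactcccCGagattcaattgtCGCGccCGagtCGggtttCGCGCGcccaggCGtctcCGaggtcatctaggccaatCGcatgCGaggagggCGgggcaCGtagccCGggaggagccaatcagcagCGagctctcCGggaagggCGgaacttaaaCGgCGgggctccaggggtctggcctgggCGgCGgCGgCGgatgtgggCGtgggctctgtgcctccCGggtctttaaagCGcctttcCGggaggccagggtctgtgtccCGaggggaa

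The E2F motif, bound by regulators of S phase entry, was searched on both strands as TTTCGCGC or TTTGGCGC, a choice made after the windows had been read. It occurred once in the inner Uhrf1 window, from 185 bases before the start, and in 2 places in the innermost Dnmt1 window, from 219 bases before and 33 bases after the start. No other window of the 15 held it, and 0.813% of all 32851 windows did. Of the 267 windows with the motif 75.7% overlapped a peak, against 40.7% of all windows. The GC box GGGCGG, searched the same way, occurred in 11714 windows (35.7%), of which 73.5% overlapped a peak. Each of these motifs holds a CpG. Windows with a CpG ratio of 0.5 to 0.75, 0.75 to 1 and at least 1 overlapped a peak in 70.8, 81.8 and 80.8% of cases. The part of CpG content in the motif shares was not tested. No match of the E2F motif overlapped a GC box in the Dnmt1 or Uhrf1 windows, and a match of letters shows no binding.

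The 3 Tet genes differed in where their peaks lay. Tet1 spans 82.9 kb of chromosome 10 (62804570 to 62887469, minus strand) and had a peak at its 5' end and a higher one inside. The end peak, from 62885392 to 62888197, scored 16.11, above 42.9% of genes with an end peak, and covered the listed start, whose CpG ratio was 0.61. The interior peak, from 62864534 to 62867186, scored 20.28, and its midpoint lay 21.6 kb inside the 5' end and 190 bp from the lower end of Gm51805, a long non-coding RNA gene that overlaps Tet1. The interior peak of Tet1 thus lay at the end of another annotated gene and on no listed start of Tet1.

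Tet3 spans 94.8 kb of chromosome 6 (83362373 to 83457208, minus strand) and had a single peak at the 5' end of its gene model. That peak, from 83455241 to 83457847, scored 20.88, above 72.3% of genes with an end peak and the highest end peak of the 10 genes. The only listed start of Tet3 lay 15.5 kb inside the gene, had a CpG ratio of 0.58 and was 13.3 kb from the peak. An end peak with no listed start in any peak was found for Dnmt3l and Tet3 among the 4 genes with both, against 6.19% of 9602 protein-coding genes with both.

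Tet2, which unlike its paralogues encodes no CXXC domain for binding CpG, had no listed peak. The gene spans 81.5 kb of chromosome 3 (133463677 to 133545136, minus strand). The window of its only listed start, 746 bp inside the 5' end, had a GC content of 81.3%, 57 CpG and a ratio of 1.17, higher than 99.2% of all listed windows. Of the 1971 windows with a ratio of at least 1, 80.8% overlapped a peak. The nearest peaks lay 55.0 kb above the gene, with a score of 8.24, and 152.0 kb below it, at Ppa2, with 30.08. Cxxc4, which encodes a CXXC protein known to regulate TET2, had an end peak of 7.76 and an interior peak of 12.95.
Tet2 window, chr3:133544341-133544640 (minus strand): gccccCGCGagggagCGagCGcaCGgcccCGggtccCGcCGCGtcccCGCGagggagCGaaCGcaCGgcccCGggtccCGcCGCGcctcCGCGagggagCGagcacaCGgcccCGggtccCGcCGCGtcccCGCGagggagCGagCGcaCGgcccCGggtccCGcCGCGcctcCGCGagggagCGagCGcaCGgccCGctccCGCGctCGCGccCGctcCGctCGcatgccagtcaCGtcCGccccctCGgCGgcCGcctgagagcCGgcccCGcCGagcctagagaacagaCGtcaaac

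**Figure D3:**
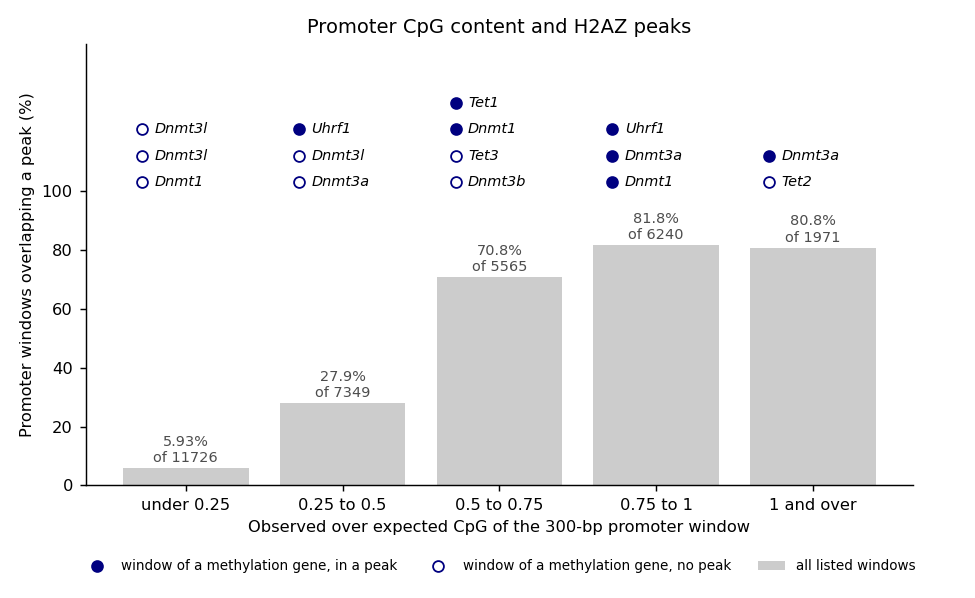
Bars give the percentage of all listed promoter windows that overlap a peak, by the observed over expected CpG of the window, and circles above stand for the 15 windows of the DNA methylation genes in each class (filled, in a peak; open, no peak). The share over all windows runs from 5.93% in the lowest class to 81.8 and 80.8% in the upper classes, where Tet2 is the only open circle.

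The 15 windows are not separate cases, since 1 peak covered 2 windows at each of Dnmt1, Dnmt3a and Uhrf1. Windows with a CpG ratio of at least 0.75 lay in a peak in 4 of 5 cases. Over all windows the share was 81.8% at a ratio of 0.75 to 1 and 80.8% above. Of the windows between 0.5 and 0.75, 2 of 4 lay in a peak, against 70.8% of all. Of those under 0.5, 1 of 6 did, the outer start of Uhrf1, against 27.9% of all between 0.25 and 0.5 and 5.93% of all below. Of the 4 genes with several listed starts, Dnmt1 and Dnmt3a had some but not all of them in a peak, against 28.3% of 2761 protein-coding genes with several. Over all 13376 windows in a peak, the peak midpoint lay a median of 28 bp downstream of the start (quartiles 149 bp upstream and 215 bp downstream).

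**Figure D4:**
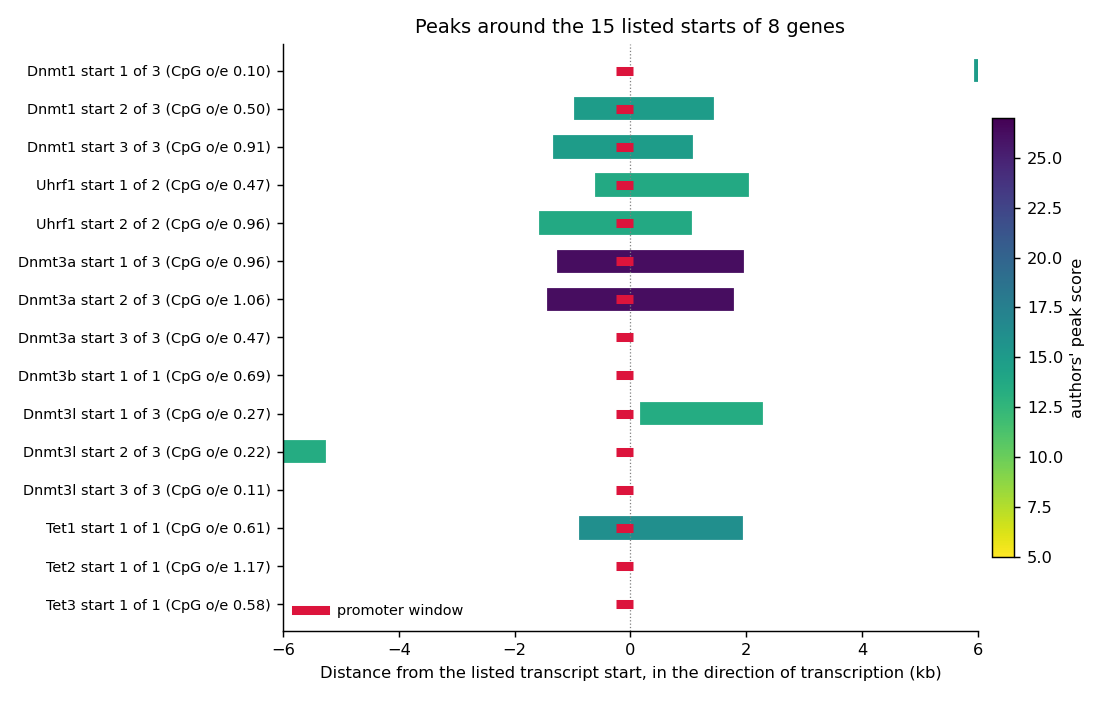
Each row is a listed transcript start of the 8 matched genes, placed at 0 and read in the direction of transcription in kb, with the promoter window in red and peaks within 6 kb coloured by score. Peaks cover 7 of the 15 starts, and the end peak of Dnmt3l begins just downstream of its first start.

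The methyl-CpG binding protein genes each had 1 peak, at the lower end of the gene. Mbd1 spans 15.1 kb of chromosome 18 (74267605 to 74282737), and its peak, from 74267385 to 74269286, scored 15.21 with a midpoint 730 bp inside the gene. Mbd2, whose product is part of a NuRD chromatin complex, spans 60.9 kb of the same chromosome (70568225 to 70629134), and its peak, from 70567435 to 70569686, scored 17.60 with a midpoint 335 bp inside. The Mbd2 peak also lay at the upper end of Gm31671, a long non-coding RNA gene. These scores were above those of 37.3% (Mbd1) and 52.5% (Mbd2) of genes with an end peak.

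The deposited list holds only some of the peaks that were numbered, since the numbers run to 32646. Once the 46 peaks that stand out of order were left out, the numbers followed position on every chromosome, so a missing number marks an unlisted peak between its listed neighbours. Between neighbouring listed peaks, 68.9% of 21525 pairs had no unlisted number. No number was missing between the listed peaks on either side of Dnmt1 and of Tet1, or upstream of the main Dnmt3a peak. In the 105.8 kb after the second Dnmt3a peak, which hold most of the gene and its innermost listed start, 2 numbers were missing. In the 31.2 kb before the end peak of Dnmt3l, where its first listed start lies, 2 were missing. In the 106.1 kb without a listed peak around Dnmt3b 3 numbers were missing, and in the 288.4 kb around Tet2 2 were. One number was missing in the 104.9 kb that hold most of Tet3, and 1 in the 20.5 kb between the peaks of Uhrf1. At Mbd1, 1 was missing in the 172.5 kb after its peak, which hold most of the gene. At Mbd2, 1 was missing in the 36.2 kb before its peak and 1 in the 82.0 kb after it. Where in these stretches the unlisted peaks lay is not known, so Dnmt3b, Tet2 and the listed starts of Dnmt3a, Dnmt3l and Tet3 outside a listed peak in these stretches may lie at an unlisted one.

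Other genes of the pathway were taken from a list of 57, of which 56 were found as protein-coding genes. Dnmt3c is entered as the pseudogene Dnmt3b-ps1 and was not counted. An end peak was present at 39 of the 56 genes (69.6%), against 55.4% of all protein-coding genes, with a median score of 14.62 against 17.08. A further 6 genes had an interior peak and no end peak (10.7%, against 5.74% of all), 3 had a peak within 5 kb only (5.36%, against 2.64%), and 8 had none (14.3%, against 36.2%).

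Among genes of the methyltransferases and their recruitment 10 of 16 had an end peak (62.5%, against 55.4% of all protein-coding genes). Hells (24.68), a chromatin remodeller gene, and Zbtb24 (22.07) are needed for methylation of satellite repeats, and Cdca7l (22.07) is the paralogue of Cdca7, the partner of Hells. Zfp445 (21.34) protects methylation at imprinted regions. Usp7 had an interior peak only (26.55), and Dppa3, Ehmt2 and Kdm1b had no peak; Dppa3 limits UHRF1 in oocytes and Kdm1b is needed for imprints there.

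Among readers of methylated or unmethylated CpG 11 of 16 had an end peak (68.8%, against 55.4% of all protein-coding genes). The highest was that of the methyl-CpG binding zinc finger gene Zbtb4 (24.76). Gatad2a, a NuRD subunit gene, had no end peak and an interior peak of 19.94. Among genes of demethylation and base excision repair 14 of 17 had an end peak (82.4%, against 55.4% of all), the largest share of the 4 groups. Their scores ran from 5.46 to 20.58, with a median of 13.335 against 17.08 over all genes with an end peak. Among genes of methyl donor and 2-oxoglutarate metabolism 4 of 7 had an end peak (57.1%, against 55.4% of all). The highest was that of D2hgdh (20.61), which clears an inhibitor of TET enzymes. Idh2, which makes 2-oxoglutarate in mitochondria, had an interior peak only (21.42), and it lay on the listed start of Idh2.

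The label of neural progenitor cells was set beside marker genes, although an H2AZ peak does not measure expression. An end peak was present at 8 of 10 progenitor markers, against 55.4% of all protein-coding genes, and their median score was 8.905 against 17.08. It was present at 2 of 5 neuronal, 1 of 5 astrocyte and oligodendrocyte, 1 of 5 endothelial, 1 of 5 erythroid and 0 of 5 microglial markers. Counting any peak in the gene or within 5 kb, against 63.8% of all genes, 9 of 10 progenitor markers had one, all but Sox2. By the same count 4 of 5 astrocyte and oligodendrocyte, 3 of 5 neuronal, 2 of 5 microglial, 2 of 5 endothelial and 1 of 5 erythroid markers had one.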

How the data were processed

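Per the deposited file, peaks carry the caller name MACS and an undefined score per peak by the authors; its settings and any use of the input as control are not stated in the sources used. The submitters' processing notes name CASAVA 1.4, FastQC, Bowtie2 2 and mm9. Depth is unknown. Other deposited columns used were peak starts (counted from 0, printed from 1) and ends. Positions were read as GRCm38, because 40.7% of the GRCm38.p6 promoter windows of RefSeq overlapped a peak, against 2.66 and 2.67% with peaks shifted by 1000 kb either way; none was converted. The 46 peaks numbered after the last Y peak were left out, leaving 21546, as were genes on unplaced sequences. Overlap meant at least 1 bp. Gene ends are the outermost positions in the gene table.

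The genes, lists and rules were chosen with earlier results of these data known. Named pathway genes are the 6 with the highest end peak, the 3 with the highest interior peak among those without an end peak, and, alphabetically, the first 3 that lack any peak; a few others are named for a count or a role. Alternatives covered score, overlap, window and flank. No test was run, since 1 library per group allows none. Python 3.11.15, numpy 2.4.6, pandas 2.3.3 and matplotlib 3.10.9 were used. On simulated peaks, 195 of 195 placed end peaks were found and 0 calls over 1301 genes of chromosome 4 differed from a direct comparison.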

Additional observations from a re-analysis of the deposited data

How the results depend on the processing

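The counts of the 10 genes with an end, an interior or any peak, and the 39 pathway genes with an end peak, stayed within 1.5 times their value under every alternative run. With windows of 500 bp or 2 kb, with peaks at or above the median score, and with the 46 out-of-order peaks kept, the same 6 genes had an end peak and the same 3 an interior peak. Over all protein-coding genes, end peaks were then present at 54.0% (500 bp), 57.3% (2 kb) and 44.4% (median score). Interior peaks were present at 14.8, 12.3 and 6.09% of all, in the same order. By the peak midpoint, or with at least 50% of the peak in the window, Dnmt3l moved from end to interior peak (5 and 4 genes). Under these 2 rules end peaks were present at 51.1 and 50.8% of all protein-coding genes, and interior peaks at 16.8 and 17.0%. With windows of 5 kb Dnmt3a gained an end peak (7 genes, against 60.8% of all). Its best interior peak became that of 5.37, and the best end peak of Dnmt3l became that of 17.24. An interior peak remained at 3 genes, against 9.92% of all. The count of genes with a promoter window in a peak, 4 of 8 (54.4% of all), was 1 by the peak midpoint (23.0% of all). It was 0 with at least 50% of the peak in the window (0.00572% of all), since the windows are 300 bp long and peaks wider. It was 5 with 1 kb on either side of a start, an alternative chosen after seeing the data. No share of all genes is given for that alternative, so the 5 cannot be set against the 54.4%. Any peak was present at 8 genes with flanks of 0, 2 and 10 kb, as with 5 kb, where the share of all was 63.8%. Shares of all at the other flanks are not given, so the counts there have no background. No paired analysis was possible because each group held 1 library, and no replicate could be left out. Unknown depth and the part of the peak list that is not listed limit every statement that a gene had no peak.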

Other observations

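Among pathway genes named after their values were seen, Zbtb38, which encodes a methyl-CpG binding zinc finger protein, had an end peak of 8.34. Its highest interior peak scored 33.41, and an interior peak of the gene lay on a listed start. Nsd1, a histone lysine 36 methyltransferase gene (20.28), and Mbd3l1 (19.99) had a peak within 5 kb but none at an end or inside. Ogt, whose product binds TET enzymes, had the lowest end peak of the list (5.46), and both of its listed starts lay in a peak.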
